A study of Rattus norvegicus with 6 samples.

Results

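Transforming growth factor beta (TGF-beta) genes were examined in rat cortical astrocytes that had bundled into tissue-engineered rostral migratory streams (TE-RMSs) and in the same kind of cell grown as planar cultures. The 7 genes named at the outset were the ligands Tgfb1 and Tgfb2, the latent TGF-beta binding protein gene Ltbp2, the feedback genes Pmepa1, Smad7 and Skil, and the target gene Tgfbi. An identifier was available for 5 of them, among the 1517 genes read from the study's differential expression table, of which 1503 have a name, so Skil and Tgfbi were not analysed here. The 5 genes are protein-coding, are among 23940 genes in the count table, and were all among the 16331 genes that reached 10 counts over all libraries. They were chosen by their difference between the conditions, which was already known, and the table that names them was read from its smallest p-values down. Their levels and fold changes are therefore given as a description, and where edgeR's calls of this contrast are stated they are no independent support.

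Both conditions held cortical astrocytes of postnatal Sprague-Dawley rat pups at passage 4, taken at 4 days in vitro in the same culture medium. TE-RMS astrocytes (condition TERMS) were seeded into agarose microchannels lined with collagen, and planar astrocytes (condition 2Dastro) were plated on collagen in wells. Each of 3 runs, called July, September and October after their labels, used other animals and gave 1 library of each condition. Only fully bundled TE-RMSs were chosen, and those of a run were preserved and pooled, whereas planar cells were extracted fresh, so pooling, preservation and culture format cannot be told apart. The planar libraries held 70682593, 70478784 and 56483332 counts and the TE-RMS libraries 54601354, 77277336 and 64537115 counts, in the order July, September and October, which is kept for all values below.

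TGF-beta ligands are secreted in a latent form, held by their own propeptide and by latent TGF-beta binding proteins in the matrix, and must be released before they can bind. Receptor serine/threonine kinases then phosphorylate SMAD proteins, which enter the nucleus and change the transcription of matrix, cytoskeletal and cell cycle genes. Among the genes induced are inhibitors of the pathway itself, such as Smad7, so their transcripts are often used as a readout. In the brain, astrocytes make and respond to these ligands, and the pathway is known for its part in glial scarring.

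The astrocyte label was checked with 12 marker genes, of which 4 have a name here. Slc1a3, a glutamate transporter of astrocytes, was at 257 ± 17.5 CPM (counts per 1000000 after TMM normalization, SD, n = 3) for planar cells against 759 ± 109 CPM (SD, n = 3) for TE-RMSs. Gja1, the gap junction protein connexin 43, was at 260 ± 32.6 CPM (SD, n = 3) and 740 ± 172 CPM (SD, n = 3). Slc1a2, the other main glutamate transporter of astrocytes, had 0.414, 1.33 and 1.03 CPM in planar cultures against 7.44, 13.03 and 20.8 CPM in TE-RMSs. Fgfr3, a growth factor receptor of astrocytes, differed in the other direction, at 144 ± 99.3 CPM (SD, n = 3) for planar cells against 23.0 ± 12.2 CPM (SD, n = 3) for TE-RMSs. The 4 markers summed to 622, 606 and 755 CPM in planar cultures against 1293, 1513 and 1801 CPM in TE-RMSs, with Slc1a3 the most abundant. None of the 4 markers was at 0 in any library, and the other 8, Gfap and Aqp4 among them, were not analysed here.

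In TE-RMS astrocytes Tgfb1, Ltbp2, Pmepa1 and Smad7 were lower than in planar astrocytes, and Tgfb2 was higher. Each gene had the same direction in all 3 runs, and for each gene the libraries of the 2 conditions did not overlap. Past an adjusted p of 0.05 in edgeR's quasi-likelihood test lay all 5 genes, against 18.6% of the 16331 tested genes (9.28% called lower and 9.36% called higher), and non-overlap held for 29.3% of tested genes (16.1% lower and 13.2% higher). Nothing is read from either count, since 99.7% of the 1517 genes read from that table were called and 90.0% of them did not overlap. The median log2 fold change of the 5 genes was -2.02, against -0.12 over all tested genes. Of the 1517 genes 50.5% were lower, so their median of -0.77 lies at the divide between lower and higher genes and is no typical value. Since the 5 were chosen for their difference, nothing is read from these medians.

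**Figure D1:**
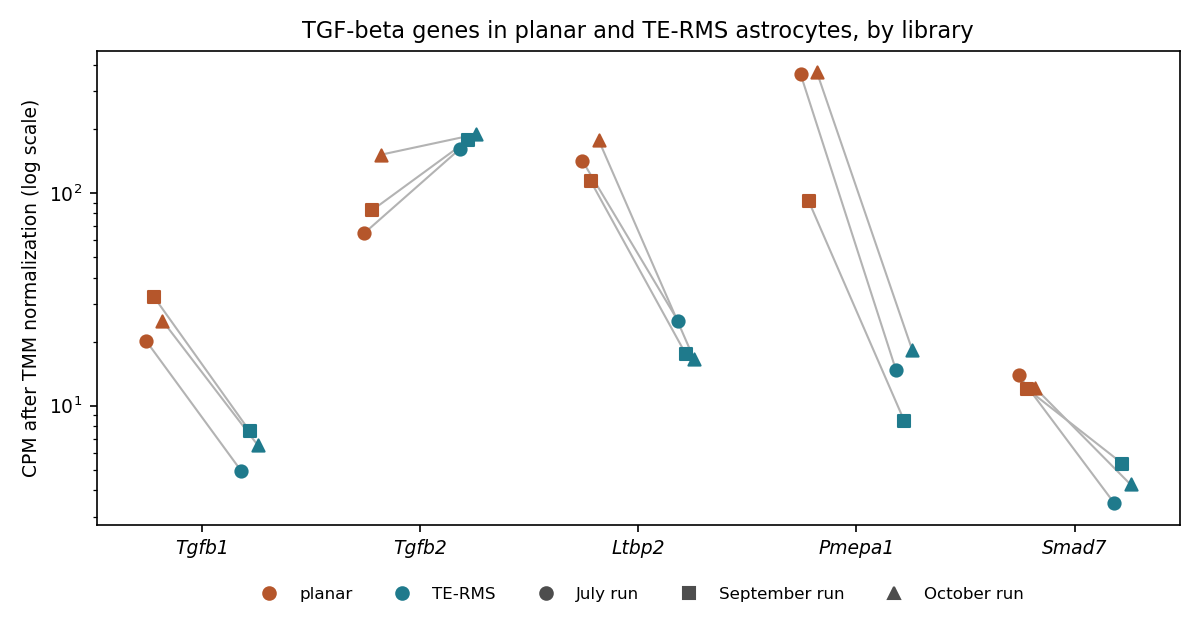
CPM after TMM normalization, on a log scale, of 5 TGF-beta genes in 6 libraries. Colours give the condition, symbols the run, and grey lines join the libraries of a run. Tgfb2 lines point up, the other 4 genes' lines point down, and Pmepa1 in the September planar library (91.3 CPM) lies well under the other planar libraries.

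The promoters of the genes with the largest differences, Pmepa1 and Ltbp2, and of the ligands, which differed in opposite directions, are shown for comparison of their sequences. They are from RefSeq on the GRCr8 assembly, another build than that of the counts, and run from 250 bases before the transcript start to 50 bases after it on the gene's strand. Capitals mark the SMAD-binding letters CAGAC on either strand and the cAMP response element TGACGTCA. The intervals are chr3:182478600-182478899 (minus strand) for Pmepa1, chr6:110257249-110257548 (minus) for Ltbp2, chr1:90324062-90324361 (plus) for Tgfb1 and chr13:100792636-100792935 (minus) for Tgfb2.
Pmepa1: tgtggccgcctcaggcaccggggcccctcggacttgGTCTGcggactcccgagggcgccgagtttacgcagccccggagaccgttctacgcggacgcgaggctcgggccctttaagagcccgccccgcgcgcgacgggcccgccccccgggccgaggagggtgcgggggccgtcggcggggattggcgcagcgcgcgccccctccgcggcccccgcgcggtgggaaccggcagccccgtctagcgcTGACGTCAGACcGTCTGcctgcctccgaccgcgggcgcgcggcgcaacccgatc
Ltbp2: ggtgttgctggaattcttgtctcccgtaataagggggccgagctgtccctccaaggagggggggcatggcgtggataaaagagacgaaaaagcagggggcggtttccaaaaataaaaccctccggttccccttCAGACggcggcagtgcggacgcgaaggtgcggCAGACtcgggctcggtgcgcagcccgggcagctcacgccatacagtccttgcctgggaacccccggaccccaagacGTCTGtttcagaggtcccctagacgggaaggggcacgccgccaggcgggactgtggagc
Tgfb1: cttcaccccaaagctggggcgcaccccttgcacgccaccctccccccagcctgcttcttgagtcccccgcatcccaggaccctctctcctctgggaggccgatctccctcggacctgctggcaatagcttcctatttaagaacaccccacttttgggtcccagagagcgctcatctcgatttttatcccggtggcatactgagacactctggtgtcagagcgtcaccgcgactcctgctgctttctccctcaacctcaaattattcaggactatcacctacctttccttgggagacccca
Tgfb2: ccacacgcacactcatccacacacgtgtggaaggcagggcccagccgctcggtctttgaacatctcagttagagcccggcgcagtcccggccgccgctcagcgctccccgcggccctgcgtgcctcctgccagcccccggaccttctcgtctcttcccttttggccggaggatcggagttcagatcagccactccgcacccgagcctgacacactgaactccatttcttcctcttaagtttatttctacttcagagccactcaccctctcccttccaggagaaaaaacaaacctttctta

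Pmepa1 and Ltbp2 each hold 3 matches to CAGAC, a number reached or passed in 4.17% of 33469 promoters of this length, while 50.1% hold at least 1. In Pmepa1 they lie at positions -214 to -210, 3 to 7 and 9 to 13 relative to the transcript start, and in Ltbp2 at -117 to -113, -85 to -81 and -9 to -5. The TGACGTCA of Pmepa1, at -4 to 4, overlaps its second CAGAC by sharing bases, and 1.83% of promoters hold that element. Neither ligand's window has a match to CAGAC, and neither does that of Smad7, whose sequence is not shown. CAGAC was the only SMAD-binding sequence searched for, so these windows were not examined for any other. The letters TGANTCA (AP-1, in 7.33% of promoters), GGAATG (TEAD, in 14.2%) and the CArG box of serum response factor (1.64%) match in none of the 5 windows on either strand. A match describes the letters in the window and not bound protein.

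Tgfb1 (ENSRNOG00000020652, chromosome 1 of mRatBN7.2 from 81196532 to 81212847) encodes the ligand best known from wound repair. It was at 20.2, 32.3 and 25.1 CPM in the planar libraries, against 4.92, 7.61 and 6.52 CPM in those from TE-RMSs. September was highest and July lowest in both conditions, and every planar library lay above every TE-RMS library. Its log2 fold change was -2.02 (standard error 0.25), which is 4.06-fold lower. Within runs the planar CPM exceeded the TE-RMS CPM 4.10-fold, 4.25-fold and 3.85-fold, and the log2 ratios spanned 0.14, the narrowest span among the 5 genes.

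Tgfb2 (ENSRNOG00000002418, chromosome 13 from 98160087 to 98261405) encodes a ligand of the same receptors that is prominent in the nervous system. Its level was 64.6, 82.9 and 151 CPM in the planar libraries, against 160.3, 176 and 188 CPM in those from TE-RMSs. The planar libraries varied 2.34-fold among themselves and the TE-RMS libraries 1.17-fold, and the October planar library lay just under the lowest TE-RMS library. The log2 fold change was 0.91 (standard error 0.20), or 1.88-fold higher. Within runs the TE-RMS level was 2.48-fold, 2.13-fold and 1.25-fold the planar level, so October showed the smallest difference. Without the run in the model Tgfb2 was not past the adjusted p of 0.05, at a log2 fold change of 0.82.

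The balance of the 2 ligands was compared within libraries, where depth and gene length cancel when conditions are compared. For each Tgfb1 count there were 3.20, 2.57 and 6.0 Tgfb2 counts in planar cells, against 32.6, 23.2 and 28.8 in TE-RMSs. The lowest TE-RMS ratio was well above the highest planar ratio. In TE-RMS libraries the ratio was 10.2-fold, 9.03-fold and 4.80-fold that of the planar library of the same run. The ratio itself is not a ratio of molecules, since counts grow with transcript length.

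**Figure D2:**
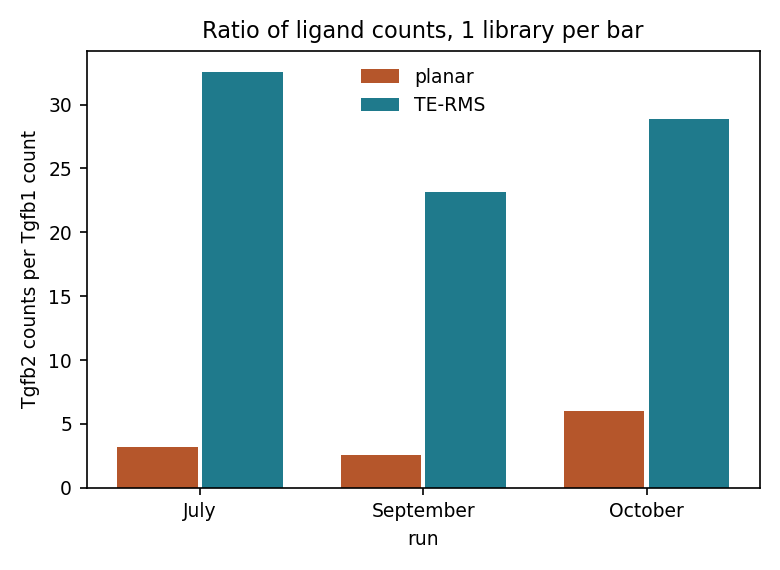
Tgfb2 counts per Tgfb1 count (vertical axis, no unit) in the planar and TE-RMS library of each run, with 1 library per bar and no error bar. TE-RMS bars run from 23.2 to 32.6 and planar bars from 2.57 to 6.0.

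Ltbp2 (ENSRNOG00000012094, chromosome 6 from 104429947 to 104526208) encodes a fibrillin-related matrix protein that, in contrast to its relatives, does not bind latent TGF-beta itself. It had 141, 114 and 176 CPM in the planar libraries, against 25.1, 17.4 and 16.5 CPM in those from TE-RMSs. The highest TE-RMS library, July, remained far under the lowest planar library, September. The log2 fold change of -2.87 (standard error 0.21) corresponds to a 7.31-fold lower level. By run the planar level was 5.63-fold, 6.53-fold and 10.7-fold the TE-RMS level, with October furthest apart.

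Pmepa1 (ENSRNOG00000050404, chromosome 3 from 162012751 to 162060454) encodes a membrane protein that is induced by TGF-beta and binds receptor-activated SMADs, limiting the signal. Its counts were 24440, 6603 and 22241 in the planar and 834, 612 and 1155 in the TE-RMS libraries, which is 361, 91.3 and 368 CPM against 14.7, 8.51 and 18.2 CPM. September was lowest in both conditions, and even that planar library was above all TE-RMS libraries. At a log2 fold change of -4.13 (standard error 0.24), or 17.5-fold lower, it differed most among the 5 genes. The planar level was 24.6-fold, 10.7-fold and 20.2-fold the TE-RMS level of the same run.

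Smad7 (ENSRNOG00000018359, chromosome 18 from 68988429 to 69016765) encodes the inhibitory SMAD that occupies the activated receptor and recruits ubiquitin ligases to it. It was at 13.9, 12.01 and 12.1 CPM in planar cultures against 3.49, 5.35 and 4.27 CPM in TE-RMSs. The planar libraries lay within 1.16-fold of each other and all above the TE-RMS libraries. Its log2 fold change was -1.55 (standard error 0.33), or 2.93-fold lower, with within-run differences of 3.98-fold, 2.24-fold and 2.84-fold. The smallest count of the 5 genes in any library was 198, for Smad7 in the July TE-RMS library, whose exact 95% Poisson interval of 171 to 228 covers counting error only.

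Differences between runs did not enter the choice of the genes and were tested over all 16331 genes, with the condition in the model. Of the 5 genes only Pmepa1 was called (adjusted p = 0.0149 in edgeR's quasi-likelihood test of the run terms), with September under July and October in both conditions, while 3.21% of all tested genes and 11.8% of the 1517 genes were called. Both contrasts share the gene's residual spread. The adjusted p was 0.238 for Tgfb2, 0.483 for Tgfb1, 0.607 for Ltbp2 and 0.948 for Smad7. For Pmepa1 the call rested on September, since with that run left out the adjusted p was 0.931, and a filter for 10 counts or more in 3 libraries or more gave 0.0711.

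For each gene the nearest profiles among the named genes were found by the root mean square (RMS) difference of log2 CPM over the 6 libraries, after each gene's mean was subtracted. Nearest to Pmepa1 were Cnn1 (0.27), the smooth muscle protein calponin 1, then the matricellular genes Ccn1 (0.53) and Thbs1 (0.53). Cnn1 had 315, 80.5 and 274 CPM in planar cultures against 13.6, 11.4 and 14.2 CPM in TE-RMSs, with the same dip in the September planar library, and no other tested gene, named or not, was nearer to Pmepa1. Nearest to Tgfb1 were Gadd45b (0.15), a stress-inducible gene, Col6a1 (0.22), a collagen VI chain, and Dok1 (0.24), an adaptor protein.

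Smad7 was nearest to Dynll2 (0.11), a dynein light chain, Fstl1 (0.15), a secreted follistatin-like protein, and Picalm (0.18), a clathrin adaptor. To Ltbp2 the nearest were Rnf10 (0.19), a ring finger protein, Eno3 (0.22), a muscle enolase, and Nfic (0.28), a transcription factor. Tgfb2 was nearest to F2r (0.17), the thrombin receptor, Ecm1 (0.18), a matrix protein, and Ccpg1 (0.20), a receptor for autophagy of the endoplasmic reticulum. For Tgfb2 another 8 genes without a name were nearer than F2r, and 20 tested genes, named or not, were nearer than Ccpg1. Counted in the same way, 6 were nearer than Thbs1 for Pmepa1 and 5 nearer than Dok1 for Tgfb1. For Ltbp2 3 were nearer than Nfic, and for Smad7 2 were nearer than Picalm. These counts include the named genes listed before. These distances describe 6 libraries and nothing of shared control.

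**Figure D3:**
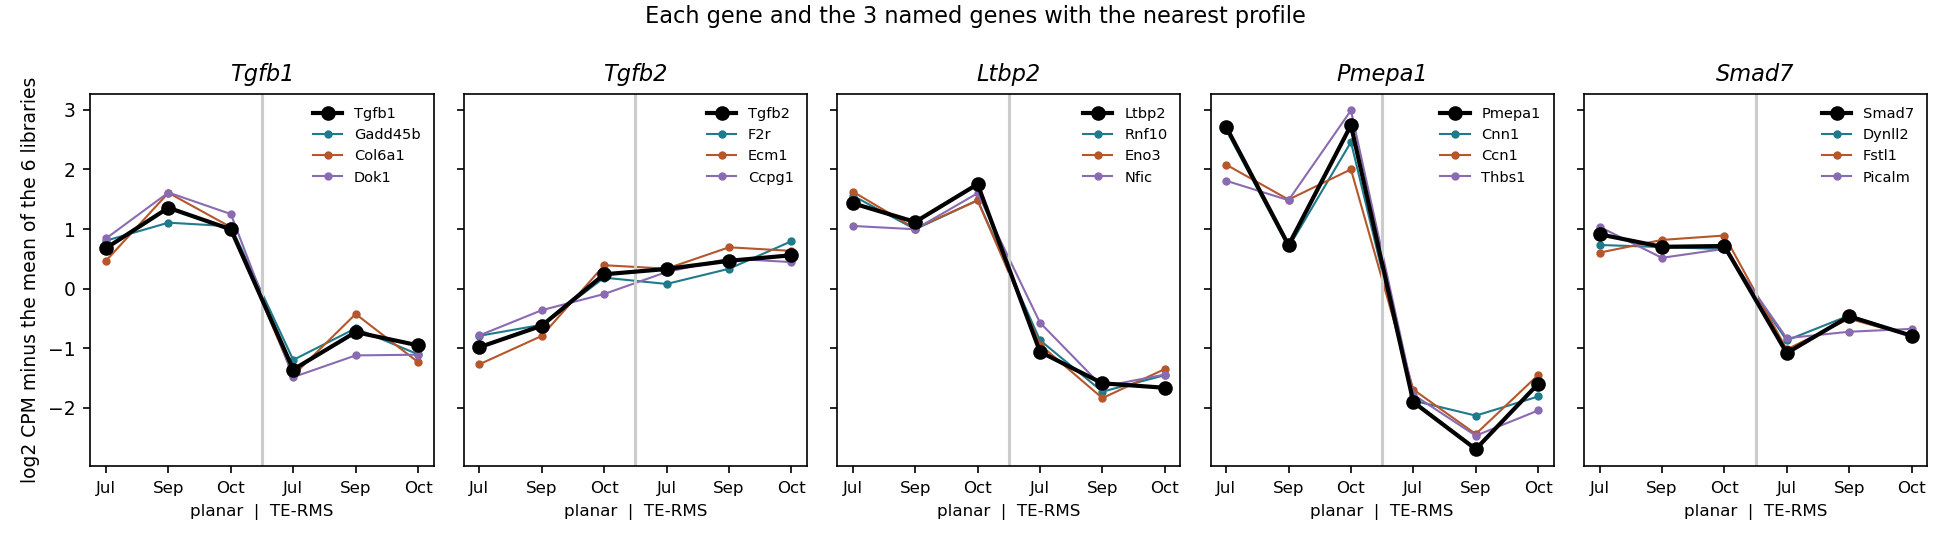
Log2 CPM of each gene (black) and its 3 nearest named genes (colours), minus the mean of the 6 libraries (vertical axis, log2 units), across planar and TE-RMS libraries of the July, September and October runs. Pmepa1 and Cnn1 share the low value of the September planar library, and Tgfb2 is the only gene of the 5 that is higher in TE-RMS libraries.

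The rest of the pathway was read from lists of 110 genes by role, of which 39 have a name here. All 39 were past the adjusted p of 0.05, where 18.6% of tested genes lay, which follows from how the names were obtained. Their direction is given as a description, with 34 lower and 5 higher in TE-RMS astrocytes and a median log2 fold change of -1.76, beside 50.5% lower among the 1517 genes read from that table and a median of -0.77. No receptor among 15 listed and no SMAD transducer among 6 listed has a name here, so neither group was analysed.

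Of the 12 other ligands listed, 2 have a name. Tgfb3, the third TGF-beta isoform, was at 15.4, 26.2 and 29.6 CPM in planar cultures against 7.14, 8.31 and 5.29 CPM in TE-RMSs (log2 fold change -1.75, standard error 0.30). Its 2 groups of libraries did not overlap, and its direction was that of Tgfb1. Gdf15, a stress-induced relative of the family, had 0.990, 4.60 and 1.27 CPM in planar cultures against 4.303, 61.6 and 12.9 CPM in TE-RMSs (log2 fold change 3.10, standard error 0.35). The conditions overlapped for Gdf15, with both September libraries the highest of their condition.

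Of 10 genes for the latent complex and matrix storage, 3 have a name and all were lower in each run. Ltbp3, which does bind latent TGF-beta, was at 44.7 ± 14.8 CPM (SD, n = 3) for planar cells against 17.6 ± 6.80 CPM (SD, n = 3) for TE-RMSs, a log2 fold change of -1.36. Emilin1, an elastic fibre protein that restrains processing of the ligand precursor, had a log2 fold change of -1.77, and Fbln5, an elastic fibre protein, one of -1.50. Among 14 genes that release or process the ligand, 3 of the 4 with a name were lower. Thbs1, the matrix protein thrombospondin 1, which can activate latent TGF-beta, was at 1133, 903 and 2566 CPM in planar cultures against 94.1, 58.4 and 78.3 CPM in TE-RMSs (log2 fold change -4.19, standard error 0.27).

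Furin, the protease that cleaves the ligand precursor, had 34.8 ± 8.64 CPM (SD, n = 3) for planar cells against 5.02 ± 3.20 CPM (SD, n = 3) for TE-RMSs, and a log2 fold change of -2.94. For the integrin subunit gene Itgb5 it was -1.57. Mmp2, a gelatinase, was the exception at 1.76, with overlapping conditions and at most 16.5 CPM in any library.

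Among 18 further inhibitors and feedback genes, 8 have a name, 6 of them lower and 2 higher. Ski, a corepressor of SMADs, was at 69.0 ± 8.15 CPM (SD, n = 3) for planar cells against 20.7 ± 4.96 CPM (SD, n = 3) for TE-RMSs, a log2 fold change of -1.76. Fst, which binds activin, had a log2 fold change of -2.17. Smad6, the other inhibitory SMAD and the nearest relative of Smad7, was chosen after its values were seen, and had 50.1, 39.5 and 64.5 CPM in planar cultures against 5.94, 7.02 and 7.97 CPM in TE-RMSs. Its log2 fold change of -2.86 (standard error 0.22) was more negative than that of Smad7, a difference that was not tested.

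Bambi, a pseudoreceptor that blocks TGF-beta and BMP receptors, went the other way, with 36.4, 152 and 104 CPM in planar cultures against 119, 496 and 466 CPM in TE-RMSs. The conditions overlapped, with July lowest in both, but within each run the TE-RMS library was higher, and the log2 fold change was 1.86 (standard error 0.17). Bhlhe40, a transcriptional repressor, had a log2 fold change of 0.96.

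Target genes made up the largest list, with 22 of 35 named, 21 lower and 1 higher, and their log2 fold changes lay between -6.64 and 1.04 around a median of -1.74. Ccn2, the connective tissue growth factor gene, had 2843, 3584 and 6737 CPM in planar cultures against 434, 692 and 1047 CPM in TE-RMSs (log2 fold change -2.59, standard error 0.18). Tagln, an actin-binding protein of smooth muscle, differed by -4.04 on that scale, while its planar level varied from 615 to 5917 CPM between runs. The inhibitors of differentiation Id3 and Id1, which respond mainly to BMP, had log2 fold changes of -1.29 and -1.27. The higher gene was Cdkn2b, the cell cycle inhibitor p15, which was named after its value was seen, at 89.2, 205 and 135 CPM in planar cultures against 149, 543 and 266 CPM in TE-RMSs (log2 fold change 1.04).

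**Figure D4:**
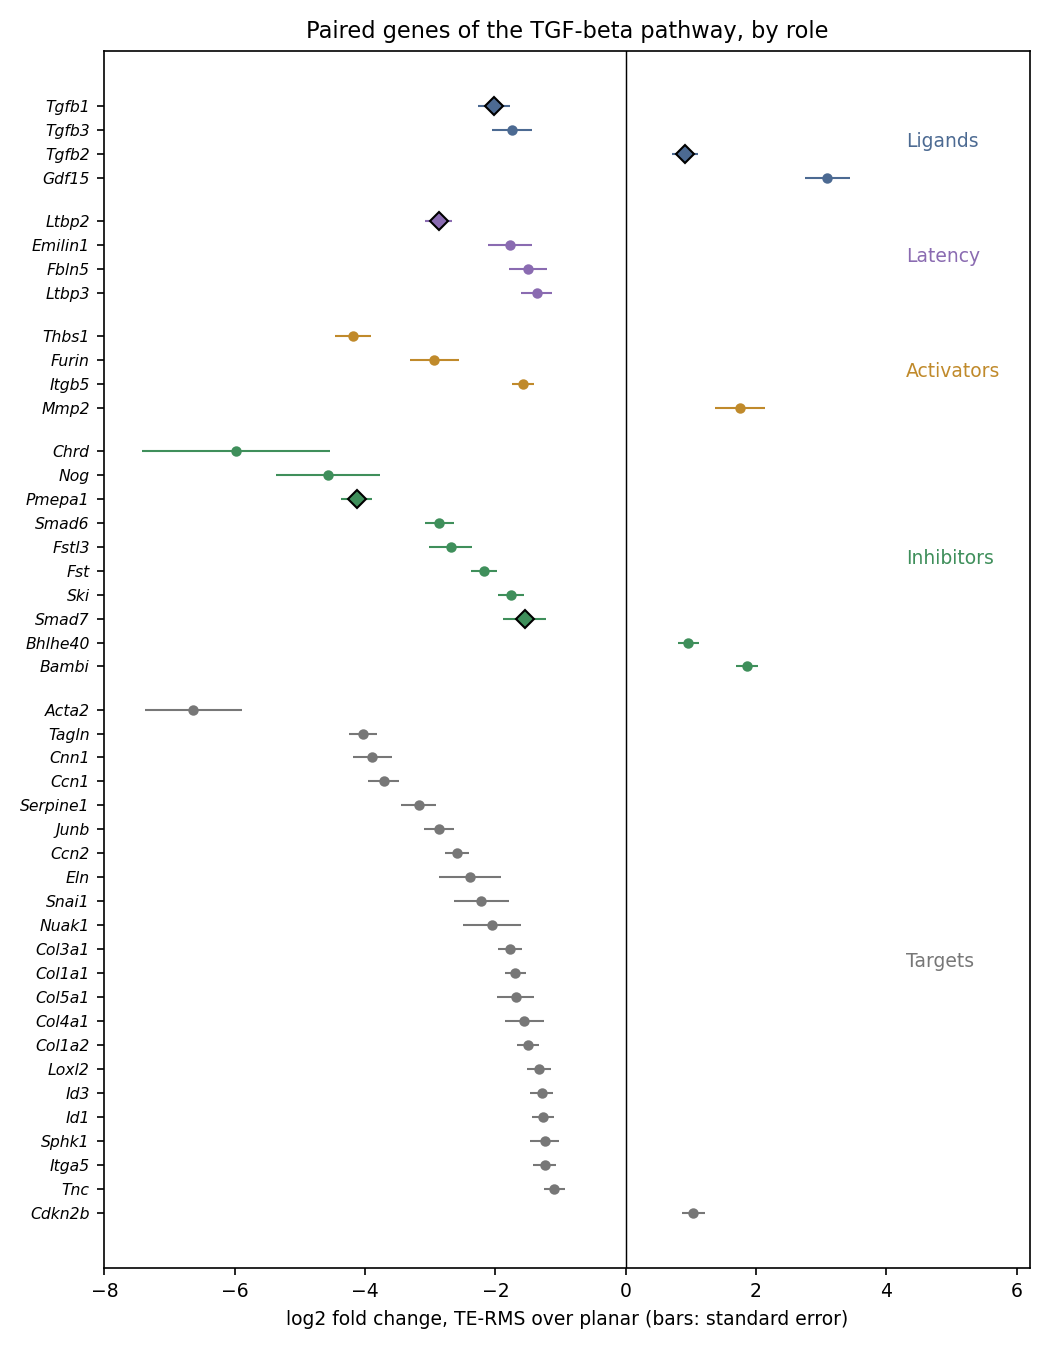
Log2 fold change of TE-RMS over planar (horizontal axis, bars for the standard error) of the 5 TGF-beta genes (diamonds) and 39 further pathway genes (circles) by role. Points left of 0 are lower in TE-RMS astrocytes. Of the circles 34 lie left of 0, and those right of it are Gdf15, Mmp2, Bambi, Bhlhe40 and Cdkn2b. Chrd had 2, 4 and 0 counts in TE-RMS libraries, so its point depends on the prior count of the fit.

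Markers of other cells moved with these genes. In bulk RNA fewer cells of a type and less RNA per cell cannot be told apart. Of 12 mural cell and fibroblast markers 5 have a name, all 5 lower, and their summed level was 6449, 815 and 1621 CPM in planar cultures against 479, 100.1 and 130 CPM in TE-RMSs. Tagln was the most abundant of them, and with Acta2, Col1a1 and Col3a1 is also on the target list. Cspg4, the marker on this list that is not a listed target, was at 4.67 ± 0.57 CPM (SD, n = 3) for planar cells against 0.554 ± 0.406 CPM (SD, n = 3) for TE-RMSs. Its TE-RMS libraries held only 40, 62 and 6 counts, so the October value is near the floor. None of the 5 markers was at 0 in any library.

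Among the microglial markers Cd68, a lysosomal protein of phagocytes, had 1.30, 15.6 and 0.778 CPM in planar cultures against 8.69, 85.4 and 3.75 CPM in TE-RMSs. Tmem119, a membrane protein of microglia, was lower in TE-RMS libraries, at 6.67 ± 2.15 CPM (SD, n = 3) against 24.8 ± 1.64 CPM (SD, n = 3), and neither was at 0 in any library. Of 7 neuronal markers Map2 and Snap25 have a name, with summed levels of 12.7, 7.63 and 5.94 CPM in planar cultures against 34.9, 91.3 and 18.1 CPM in TE-RMSs. Snap25 gave 0.459, 60.8 and 3.50 CPM of the TE-RMS sums, so the September sum rests mostly on that gene, and its conditions overlapped. No endothelial marker of 7 has a name. The part of any of these cells in the differences of the TGF-beta genes was not tested.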

How the data were processed

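From extracted total RNA, 6 rat astrocyte libraries, 3 TE-RMS and 3 planar, were made with an mRNA kit for low input and sequenced. The authors used fastp for trimming, Salmon for transcript abundance (Ensembl, mRatBN7.2) and tximeta for the sums per gene. They deposited estimated counts per gene, whole and not normalized. Salmon divides shared reads by probability, and a kit without strand cannot separate antisense overlaps. Totals ran from 54601354 to 77277336 counts.

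For genes reaching 10 counts over all libraries, edgeR 4.0.16 (R 4.3.3) gave TMM factors and quasi-likelihood tests, blocked by run, with p-values adjusted by Benjamini-Hochberg and a threshold of 0.05. Each run used other animals, so libraries of a condition were counted as replicates. Standard errors are the log2 fold change over the square root of F, and the prior count was 0.125 for fold changes and 2 for log2 CPM. The study pairs libraries of a run, and their deviations from the condition mean correlated at 0.18 to 0.27 within runs. Between runs the correlations were -0.16 to -0.07. Those negative values follow from the positive ones, since deviations from the mean cancel within a condition. Alternatives were other scalings and filters, DESeq2 1.42.0 (the study's method), limma 3.58.1, no block, and each run left out. The fits were tested on 1 set of simulated data, where the share of false calls exceeded the threshold for edgeR with the block and for DESeq2, but not for limma or for edgeR without the block.

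Names and positions come from the study's differential expression table, of which 1517 genes were read, 1503 of them with a name. Its statistics were not used. Genes and lists were chosen with earlier results of these data known. Values were printed for the named genes of each list, up to 4 a role by mean CPM, and for the 3 nearest profiles of each gene. RefSeq promoters matched all 5 genes by symbol. Some marker genes of microglia and oligodendrocytes are not reported here.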

Additional observations from a re-analysis of the deposited data

How the results depend on the processing

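Each alternative kept the direction of all 5 genes, and 49 of 50 recomputed fold changes stayed past the threshold of 0.05, which is no independent support, since the genes were chosen for this contrast. The exception was Tgfb2 without the run as a block, with a log2 fold change of 0.82 and an adjusted p of 0.117 in edgeR's test. The other 4 genes kept their calls without the block. Without it 1441 genes were called between the conditions, against 3044 with it. With each run left out, which leaves 1 residual degree of freedom, the calls ran from 2081 to 3210 genes. Log2 fold changes ran from -4.48 to -3.88 for Pmepa1, -3.06 to -2.57 for Ltbp2, -2.03 to -1.99 for Tgfb1, -1.75 to -1.33 for Smad7 and 0.70 to 1.23 for Tgfb2. The median rise in the ratio of Tgfb2 to Tgfb1 counts, 9.03-fold, ran from 6.92-fold to 9.61-fold. For the run terms 525 genes were called, against 224 with at least 10 counts in at least 3 libraries, 1245 with DESeq2, and 366 to 746 with a run left out, which was added after the data were seen. The causes of these changes were not tested. The 3 nearest named genes of each of the 5 were the same with a prior count of 0.5.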
